A study of Mus musculus with 12 samples.

Results

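The 10 genes described here encode the c-Jun N-terminal kinases (JNKs) and the proteins directly above and beside them: the kinases JNK1, JNK2 and JNK3 (Mapk8, Mapk9 and Mapk10), the scaffolds JIP1, JIP2 and JIP3 (Mapk8ip1, Mapk8ip2 and Mapk8ip3), the activating kinases MKK4 and MKK7 (Map2k4 and Map2k7), and the kinases DLK and LZK (Map3k12 and Map3k13). They were chosen by exact match to the gene name among the 55487 genes of the gene table, and all 10 were found and passed the filter on low values, a mean above 1 FPKM in at least 1 group. The 34 transcripts of Mapk8, Mapk9 and Mapk10 among the 142699 of the transcript table were described as well, and 23 of them passed the same filter. FPKM is the number of fragments per kilobase of transcript, scaled to the mapped fragments of the library.

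The data were RNA-seq of adult mouse retina, 12 libraries in 6 groups of 2. WT retinas came from C57BL/6J mice. JNK3 KO retinas came from Jnk3-/- mice, in which both copies of Mapk10 carry a disrupting mutation, kept as an inbred colony. shPax6 retinas came from mice injected with 2 µL of AAV2.7m8, an adeno-associated virus that carried a U6-driven short hairpin RNA against Pax6 and a GFP reporter. Retinas of each kind then received 1 µL into the vitreous, either of PBS or of 40 mM NMDA, a dose of 40 nmol. NMDA overstimulates glutamate receptors and can kill retinal ganglion cells (RGCs) and amacrine cells. By staining, the study that produced the data reported apoptosis mainly in RGCs and little in amacrine cells. Each library was made from poly(A) RNA of several pooled retinas, so p-values measure the spread between such pools, which may be in part technical. No library with a control hairpin was analysed here, so the effects of the virus and of the knockdown cannot be told apart.

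JNKs are the last kinases of a 3-step relay. DLK and LZK sense damage to axons and phosphorylate MKK4 and MKK7, these phosphorylate a threonine and a tyrosine in the activation loop of a JNK, and the JIP scaffolds hold the kinases together and tie them to motor proteins on microtubules. In the retina the DLK to JNK relay is known for driving the death of injured RGCs, and JNK3 is the member largely confined to neurons.

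On GRCm38 the genes on the plus strand are Mapk9 (ENSMUSG00000020366) at chr11:49846751-49886421, Mapk8ip2 (ENSMUSG00000022619) at chr15:89453913-89464468, Map2k7 (ENSMUSG00000002948) at chr8:4238740-4247897 and Map3k13 (ENSMUSG00000033618) at chr16:21794346-21933439. Those on the minus strand are Mapk8 (ENSMUSG00000021936) at chr14:33377898-33447158, Mapk10 (ENSMUSG00000046709) at chr5:102907948-103211334, Mapk8ip1 (ENSMUSG00000027223) at chr2:92383676-92401263, Mapk8ip3 (ENSMUSG00000024163) at chr17:24892153-24936977, Map2k4 (ENSMUSG00000033352) at chr11:65688243-65788297 and Map3k12 (ENSMUSG00000023050) at chr15:102497646-102517064.

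The 2 WT NMDA libraries stood apart from the other 10. Their FPKM values summed to 805627 and 820180, against 541210 to 576922 elsewhere, and their fold changes followed transcript length. Among genes with a spliced length under 2000 bases the median log2 difference between NMDA and PBS in WT was 0.62, and it was -0.60 at 3000 to 4000 bases and -1.54 at 6000 bases or more. In the same classes the medians were 0.20, 0.05 and -0.13 in shPax6 and -0.11, 0.05 and 0.26 in JNK3 KO. The 10 genes had spliced lengths between 2515 bases (Mapk10) and 8562 bases (Map3k13), weighted by transcript level. The WT NMDA differences of the 10 genes are therefore given with the length trend removed as well, and the part of RNA quality in the rest was not tested. For other genes this second value is given only in part, mostly for genes that fell. A WT difference printed without it has the length trend left in. The median of all genes was -0.09 in WT, 0.10 in shPax6 and -0.02 in JNK3 KO, and on the TPM scale, which sets each library to the same total, it was -0.66 in WT. Of all genes called in WT 43.49% were higher after NMDA, or 21.37% on the TPM scale, and in shPax6 63.44%, or 44.04% after quantile normalization.

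**Figure D1:**
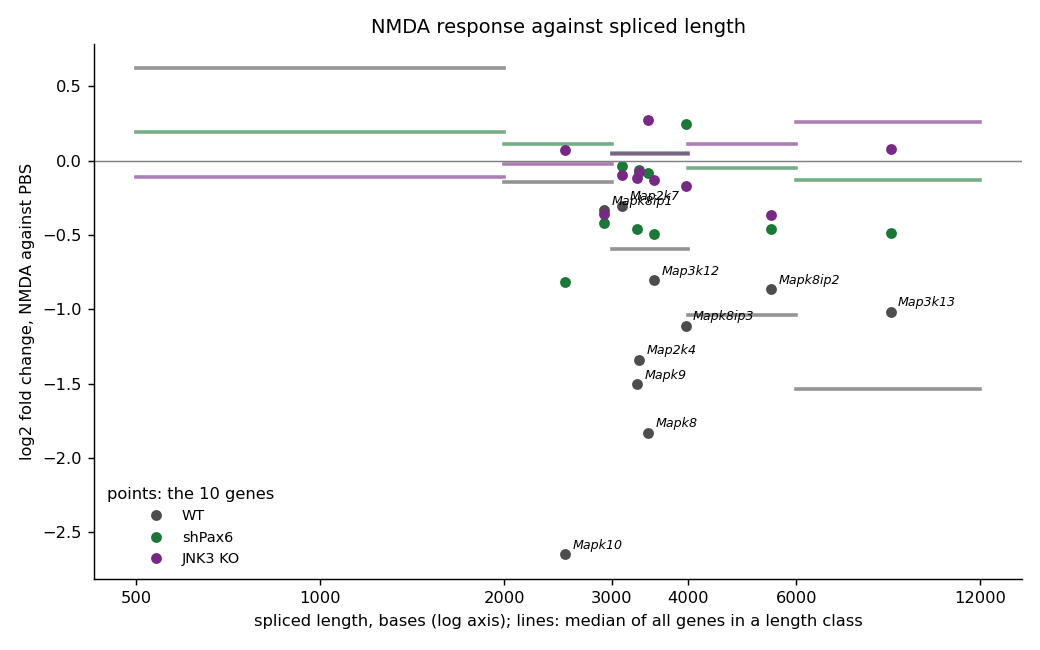
Log2 fold change of NMDA against PBS (log2(FPKM + 0.1) scale) for the 10 genes (points, coloured by kind of retina, named for WT) against their spliced length in bases on a log axis, with horizontal lines at the median of all genes in each of 5 length classes. The WT lines step down from 0.62 to -1.54 with length, whereas the shPax6 and JNK3 KO lines stay between -0.13 and 0.26, and of the 10 genes in WT Mapk8ip2, Map2k7 and Map3k13 lie above the WT line of their class and the others below it.

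Marker genes moved with the groups. The summed FPKM of 14 RGC markers was 734 to 758 in WT PBS, 402 to 412 in WT NMDA, 250 to 253 in shPax6 PBS, 93.0 to 102 in shPax6 NMDA, 697 to 736 in JNK3 KO PBS and 215 to 217 in JNK3 KO NMDA, and none was at 0 in every library of a group. The sum of 8 amacrine markers went from 272 to 279 down to 111 to 121 with NMDA in WT, from 212 to 223 down to 90.6 to 93.0 in shPax6, and from 242 to 251 down to 203 to 209 in JNK3 KO. The sum of 6 neutrophil markers was 188 to 210 with PBS and 1926 to 1968 with NMDA in WT, with 4 of the 5 tested called higher, whereas in JNK3 KO it was 129 to 143 with PBS and 11 to 12.5 with NMDA. In shPax6 it was 3.52 to 6.12 with PBS and 56.7 to 66.1 with NMDA. Ngp was at 0 in shPax6 and JNK3 KO with PBS and NMDA alike, and Camp in shPax6 NMDA and JNK3 KO PBS. The microglia and macrophage sum was 44.9 to 49.1 and 105 to 110 with PBS and NMDA in WT and 128 to 140 and 431 to 448 in shPax6. The Müller glia sum was 712 to 741 and 1420 to 1440 in WT. Such sums are weighted to the most abundant markers. In WT 4 microglia and macrophage markers were called higher and 3 lower, and 2 Müller glia markers higher and 4 lower. Without the length trend each of these lists had 2 higher and 2 lower. In WT the erythrocyte sum was 97.0 to 107 with PBS and 611 to 649 with NMDA, and in shPax6 the cone sum was 1028 to 1126 and 220 to 252 and that of the retinal pigment epithelium 51.2 to 52.5 and 3.52 to 6.17. In whole retina, fewer cells of a type and less RNA per cell cannot be told apart, and the part of these markers in the results below was not tested.

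The 3 JNK genes share the activation loop that their upstream kinases phosphorylate. The coding sequence around it is shown because it is what makes these genes targets of Map2k4 and Map2k7. The capitals mark the 9 bases that encode threonine, proline and tyrosine. The sequences are from GENCODE M21 transcripts on GRCm38, and each lies in a single exon.
Mapk8-205, chr14:33392979-33393035, minus strand: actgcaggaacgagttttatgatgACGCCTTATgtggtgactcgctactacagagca
Mapk9-201, chr11:49872806-49872862, plus strand: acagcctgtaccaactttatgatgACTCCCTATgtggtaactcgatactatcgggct
Mapk10-203, chr5:102989657-102989713, minus strand: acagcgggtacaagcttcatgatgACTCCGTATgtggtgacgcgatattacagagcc
The first capital opens codon 183 of Mapk8-205 and Mapk9-201 and codon 221 of Mapk10-203. Over the aligned coding sequences Mapk8 was 74.9% identical to Mapk9 and 77.5% to Mapk10, and Mapk9 was 75.8% identical to Mapk10. The longest identical run between any pair was 27 bases, and no run as long as a read was shared.

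In WT PBS retinas Mapk9 was measured at 48.2 and 45.4 FPKM, Mapk10 at 42.8 and 50.7 FPKM and Mapk8 at 25.8 and 27.1 FPKM. Mapk9 and Mapk10 overlapped and both lay above Mapk8. Of the sum of the 3 genes, Mapk8 held 22.1% and 22.0%, Mapk9 41.3% and 36.8%, and Mapk10 36.7% and 41.2%. Much of the Mapk10 level came from transcripts that do not encode the full kinase. A 342-base noncoding transcript at the 5′ end of the gene, Mapk10-207, was listed at 13.9 and 18.9 FPKM, and Mapk10-209, annotated as a target of nonsense-mediated decay, at 11.1 and 13.4 FPKM. Mapk10-213, at 5.58 and 5.13 FPKM, is not in the annotation used and was not counted as coding. Its values equalled those of the coding transcript Mapk10-203, so the coding level of Mapk10 is understated if Mapk10-213 is coding. With protein-coding transcripts alone Mapk10 held 17.3% and 19.3% of the 3 genes, at 11.4 and 13.1 FPKM, below Mapk8 at 23.9 and 24.7 FPKM and Mapk9 at 30.5 and 30.3 FPKM.

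**Figure D2:**
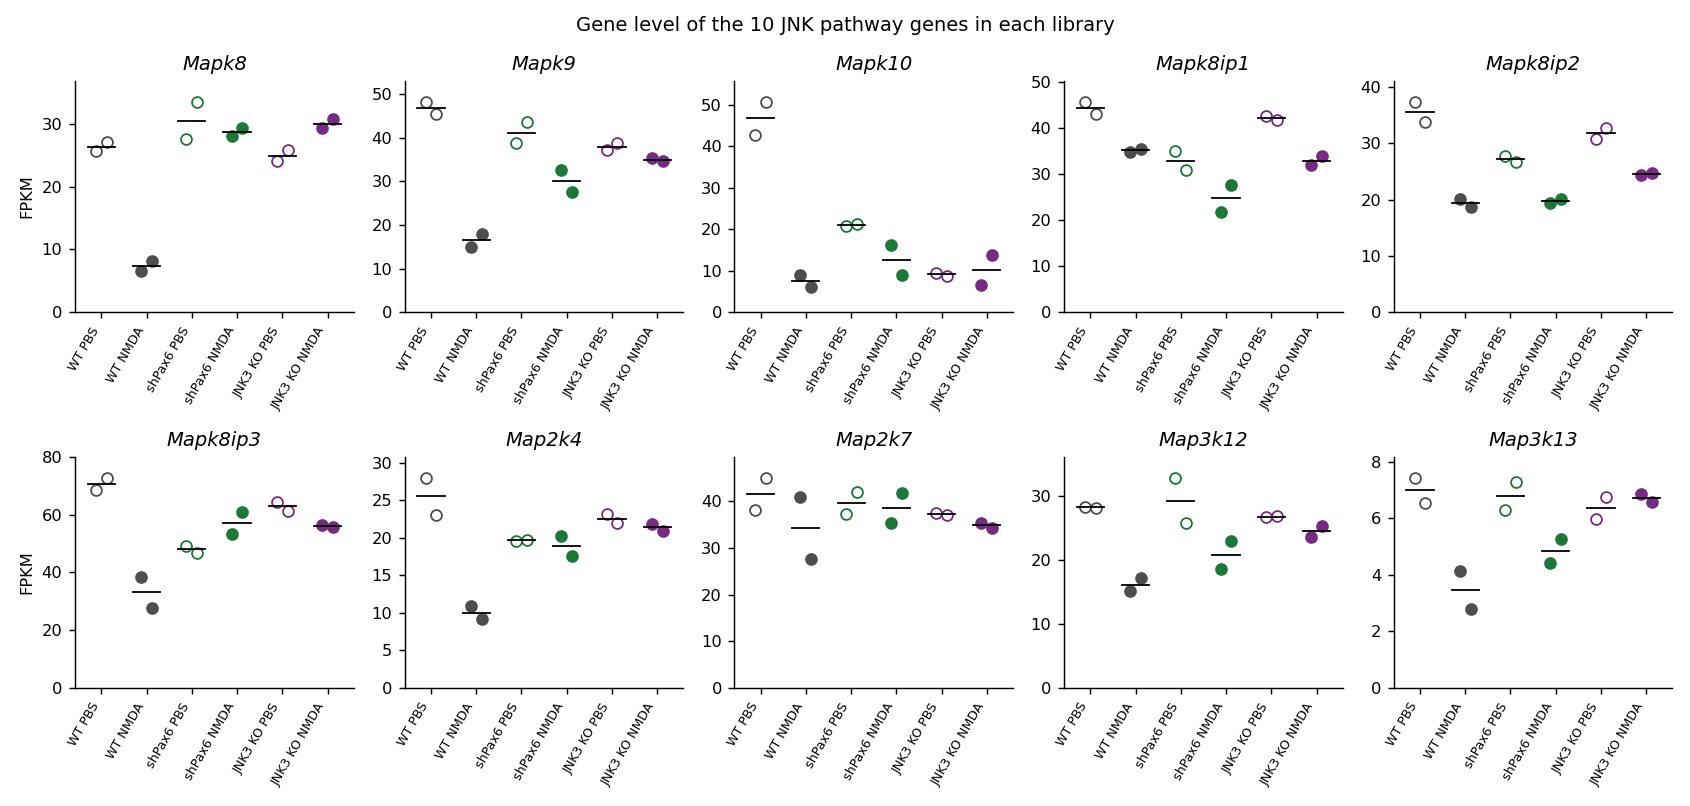
FPKM of each of the 10 genes in each of the 12 libraries, with PBS libraries as open circles, NMDA libraries as filled circles and black lines at the mean of the 2 libraries of a group; each panel has its own axis, starting at 0. The 2 WT NMDA libraries are the lowest of the 12 for Mapk8, Mapk9, Mapk8ip3, Map2k4, Map3k12 and Map3k13, while Map2k7 ranges only from 27.5 to 45.1 FPKM.

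All 3 JNK genes were lower after NMDA in WT retinas, by 2.84-fold for Mapk9, 3.55-fold for Mapk8 and 6.27-fold for Mapk10. Mapk8 went from 25.8 and 27.1 FPKM with PBS to 6.62 and 8.18 FPKM with NMDA, and it fell by 1.83 on the log2 scale (SE 0.123, adjusted p = 1.999e-06, limma with Benjamini-Hochberg adjustment over 16471 genes). Mapk9 went from 48.2 and 45.4 FPKM to 15.0 and 18.0 FPKM and fell by 1.504 (SE 0.113, adjusted p = 3.844e-06). Mapk10 went from 42.8 and 50.7 FPKM to 8.98 and 6.00 FPKM and fell by 2.65 (SE 0.361, adjusted p = 0.0001798). In each case both NMDA libraries lay below both PBS libraries. Without the length trend the differences were -1.24 for Mapk8, -0.97 for Mapk9 and -2.47 for Mapk10, all still called at an adjusted p under 0.05. With protein-coding transcripts alone Mapk10 went from 11.4 and 13.1 FPKM to 4.32 and 3.49 FPKM. Mapk8 then went from 23.9 and 24.7 FPKM to 6.62 and 7.21 FPKM, a larger fall in proportion. With the length trend removed from these sums, the differences were -1.15 for Mapk8, -0.46 for Mapk9 and -1.42 for Mapk10, all called. Of the 10 genes, 9 were called lower in WT, beside 33.8% of all genes tested. Without the length trend 5 were called, of which Mapk8, Mapk9, Mapk10 and Map2k4 were lower and Mapk8ip2 was higher. Of all 16452 genes tested in that setting, 3638 were lower and 3920 higher.

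In shPax6 retinas the JNK genes moved less. Mapk8 had 27.6 and 33.5 FPKM after PBS and 28.1 and 29.3 FPKM after NMDA, groups that overlapped (log2 difference -0.08, 95% interval -0.36 to 0.20). Mapk9, at 38.8 and 43.5 FPKM with PBS and 32.6 and 27.5 FPKM with NMDA, fell by 0.46 (SE 0.113, adjusted p = 0.01433), and this call was lost without the second shPax6 PBS library (-0.37) or the second shPax6 NMDA library (-0.34). Mapk10, at 20.9 and 21.3 FPKM with PBS and 16.2 and 8.85 FPKM with NMDA, differed by -0.81 (adjusted p = 0.1242), with the 2 NMDA libraries far apart. With protein-coding transcripts alone it was called lower (-0.88, adjusted p = 0.007117) and Mapk9 was not (-0.27, adjusted p = 0.05056). In all, 4 of the 10 genes were called lower in shPax6, beside 11% of all genes.

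In JNK3 KO retinas no JNK gene was called. Mapk8 had 24.03 and 25.8 FPKM after PBS and 29.3 and 30.8 FPKM after NMDA, so that both NMDA libraries were above both PBS libraries, and the difference of 0.27 on the log2 scale missed the threshold (adjusted p = 0.224). Mapk9 was at 37.1 and 38.8 FPKM against 35.3 and 34.7 FPKM (-0.12, adjusted p = 0.6033). Of the 10 genes only the scaffold gene Mapk8ip2 was called lower, beside 6.1% of all genes, and 2 passed an unadjusted p under 0.05.

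The difference between responses was tested directly, as the NMDA response of WT minus that of the other retinas. For Mapk8 this difference was -1.75 against shPax6 (adjusted p = 5.741e-05) and -2.10 against JNK3 KO (adjusted p = 1.277e-05). For Mapk9 it was -1.05 (adjusted p = 0.0006429) and -1.39 (adjusted p = 8.975e-05), and for Mapk10 -1.84 (adjusted p = 0.01523) and -2.72 (adjusted p = 0.001738). Without the length trend, Mapk8 (-1.08 and -1.46) and Mapk10 (-1.52 and -2.55) remained called in both, whereas Mapk9 remained called against JNK3 KO (-0.81) but not against shPax6 (-0.42). With protein-coding sums and the length trend removed, Mapk8 (-1.05 and -1.32) remained called in both. In that setting Mapk10 was not called against shPax6 (-0.44) but was against JNK3 KO (-1.185). Mapk9 was then called against neither (-0.13 and -0.14). The Mapk10 difference against shPax6 was no longer called without the second WT PBS library (-1.71), the second WT NMDA library (-1.55) or the first shPax6 NMDA library (-1.41). Over the 10 genes, 6 had a more negative response in WT than in shPax6, beside 31.4% of all genes, and 8 a more negative response than in JNK3 KO, beside 27.9%. Without the length trend, 3 were more negative in WT than in shPax6 (Mapk8, Mapk10 and Map2k4) and 3 more positive (Mapk8ip1, Mapk8ip2 and Map3k13). Of all 16452 genes, 2766 were then more negative and 3187 more positive. Against JNK3 KO 4 were more negative (the JNK genes and Map2k4) and Mapk8ip2 was more positive, beside 2594 and 3025 of all genes. Both differences use the same 4 WT libraries and are not independent.

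**Figure D3:**
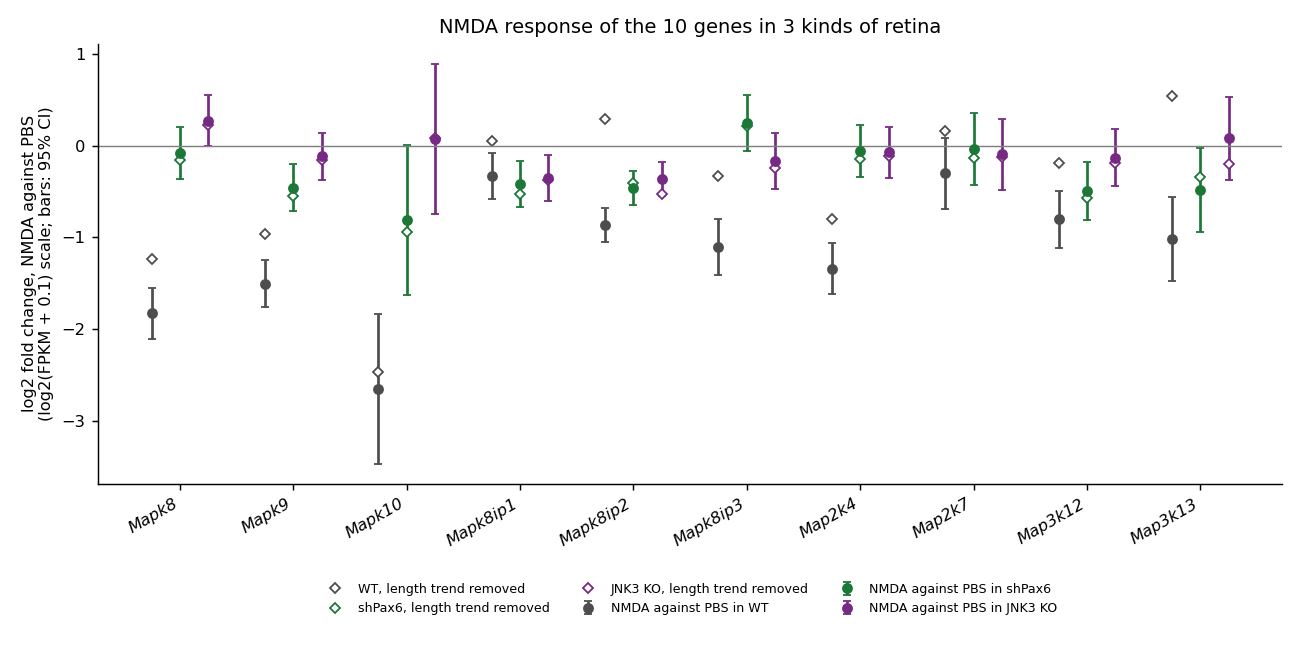
Log2 fold change of NMDA against PBS for each of the 10 genes in WT (grey), shPax6 (green) and JNK3 KO (purple) retinas on the log2(FPKM + 0.1) scale; filled circles with bars are the fitted values with 95% confidence intervals and open diamonds the values without the length trend. Mapk8, Mapk9 and Mapk10 lie at -1.83, -1.504 and -2.65 in WT and stay below 0 as diamonds, whereas the WT diamonds of Mapk8ip2 (0.29) and Map3k13 (0.54) lie above 0.

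Mapk10 is the gene targeted in the knockout, and Pax6, which encodes a transcription factor of eye development, is the target of the hairpin. Pax6 measured 94.6 and 92.8 FPKM in shPax6 PBS, against 173 and 177 FPKM in WT PBS and 187 and 191 FPKM for the JNK3 KO retinas after PBS, so the shPax6 PBS libraries were below both other kinds. After NMDA Pax6 was at 55.4 and 53.8 FPKM in WT, where it fell by 1.68 (adjusted p = 1.208e-07), below the 67.5 and 58.7 FPKM of shPax6. Mapk10 was at 9.47 and 8.75 FPKM in JNK3 KO PBS against 42.8 and 50.7 FPKM in WT PBS, and fell by 2.34 (SE 0.361, adjusted p = 0.02147). It was the only one of the 10 genes called lower there, beside 0.407% of all genes, and the call was lost without any single one of the 4 libraries, at values between -2.47 and -2.22. The labels do not say which exons the knockout removes, and reads from the rest of the gene would still be counted. In JNK3 KO NMDA, Mapk10 was at 6.65 and 13.8 FPKM, a range that took in both PBS libraries. In shPax6 PBS it was at 20.9 and 21.3 FPKM, below both WT PBS libraries, with a difference of -1.14 that was not called (adjusted p = 0.06337). It was called with a pseudocount of 1, with the spread taken from the 2 groups alone, without either JNK3 KO NMDA library, by an unadjusted p with a fold change, and with protein-coding transcripts alone (-0.81, adjusted p = 0.01682), also when the length trend was removed from these. Both PBS comparisons use the same WT PBS libraries. Protein-coding transcripts alone gave Mapk10 at 4.39 and 3.78 FPKM in JNK3 KO PBS and 6.11 and 7.80 FPKM in shPax6 PBS, against 11.4 and 13.1 FPKM in WT PBS.

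The knockout held 1 Mapk10 transcript not listed above 0 elsewhere, beside others that WT retinas also had. Mapk10-201, a coding transcript whose annotated start lies within the gene, was at 3.43 and 1.00 FPKM in JNK3 KO PBS and 1.24 and 0.52 FPKM in JNK3 KO NMDA, and was listed at 0 in the other 8 libraries. It made up 36.2% and 11.4% of Mapk10 in JNK3 KO PBS and 18.7% and 3.78% in JNK3 KO NMDA, and Mapk10-203, Mapk10-207 and Mapk10-209 were all above 0 in the 4 libraries. Its level was not called on its own (adjusted p = 0.09735 over 49940 transcripts), but its change relative to the other Mapk10 transcripts was (limma diffSplice, adjusted p = 3.682e-06). Mapk10-202 was at 3.02 and 5.58 FPKM in WT PBS and listed at 0 in both JNK3 KO PBS libraries (adjusted p = 0.0466), a call that was lost in 8 of the 12 fits without 1 library and with any other pseudocount tried. Mapk10-205 and Mapk10-206, which end in the middle of the gene, were listed at 0 in all 4 JNK3 KO libraries and at up to 0.84 and 1.38 FPKM elsewhere, too low for the filter. Of the 23 transcripts tested, 1 was lower in JNK3 KO PBS, beside 0.0741% of all transcripts, and 2 changed unlike the rest of their gene, beside 0.409%.

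The 2 annotated Mapk10 starts in the RefSeq promoter table (GRCm38.p6) are shown because the transcript found only in the knockout begins 6 bases downstream of the second. Lower case is 200 bases upstream of the start and the capitals mark the first 30 transcribed bases, all on the minus strand.
Upstream start, chr5:103211305-103211534: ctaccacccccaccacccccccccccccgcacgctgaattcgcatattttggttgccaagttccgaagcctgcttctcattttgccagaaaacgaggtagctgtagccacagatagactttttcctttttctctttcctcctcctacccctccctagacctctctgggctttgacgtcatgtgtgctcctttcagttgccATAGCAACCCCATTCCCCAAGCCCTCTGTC
Start within the gene, chr5:103058363-103058592: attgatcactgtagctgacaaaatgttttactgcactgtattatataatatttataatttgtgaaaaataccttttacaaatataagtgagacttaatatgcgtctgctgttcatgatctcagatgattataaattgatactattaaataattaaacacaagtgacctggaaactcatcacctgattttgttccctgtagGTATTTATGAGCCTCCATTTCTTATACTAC
The upstream window of 300 bases had 55.3% G and C and the inner one 32.7%, which is at percentile 2.2 of 32851 windows, whose median was 52.7%. The upstream window held 1 match to the cyclic AMP response element TGACGTCA, found in 1.79% of windows, and the inner window 2 matches to TATAAA, found in 13.62%, counted on both strands. Neither held TGANTCA, the AP-1 sequence bound by JUN, found in 7.81%. The inner RefSeq start is also the 5′ end of a later exon of 6 other Mapk10 transcripts, so the bases printed before it end an intron of those transcripts. No base of Mapk10-201 is its own, and the estimate of its level rests on how exons are joined.

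After NMDA, WT retinas held 1 Mapk10 transcript listed above 0 in no other group. Mapk10-204, a coding transcript that starts at chr5:103100081, was at 3.93 and 1.71 FPKM in WT NMDA and listed at 0 in the other 10 libraries. Of its 6761 bases only 125 are used by no other transcript, so its estimate may rest largely on shared exons. The 2 WT NMDA libraries are also those whose differences followed transcript length. The part of either in its level was not tested. It was called higher (adjusted p = 0.0005609) while 6 of the other 7 Mapk10 transcripts tested were called lower, and its change differed from the rest of the gene (adjusted p = 3.953e-09). Mapk10-207 went from 13.9 and 18.9 FPKM to 1.81 FPKM and a listed 0, and Mapk10-202 from 3.02 and 5.58 FPKM to a listed 0 in both, and both changed unlike the rest of the gene (adjusted p = 0.003491 and 0.002004). The coding transcript Mapk10-203 went from 5.58 and 5.13 FPKM to 0.25 and 1.39 FPKM (adjusted p = 0.01594), which was not called without the length trend (-1.22), whereas Mapk10-202, Mapk10-204, Mapk10-207 and Mapk10-209 still were. Mapk10-209 went from 11.1 and 13.4 FPKM to 2.60 and 1.13 FPKM. Mapk10-213 carried the same value as Mapk10-203 in all 12 libraries. The 2 are not separate measurements, and both values are part of the gene level.

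**Figure D4:**
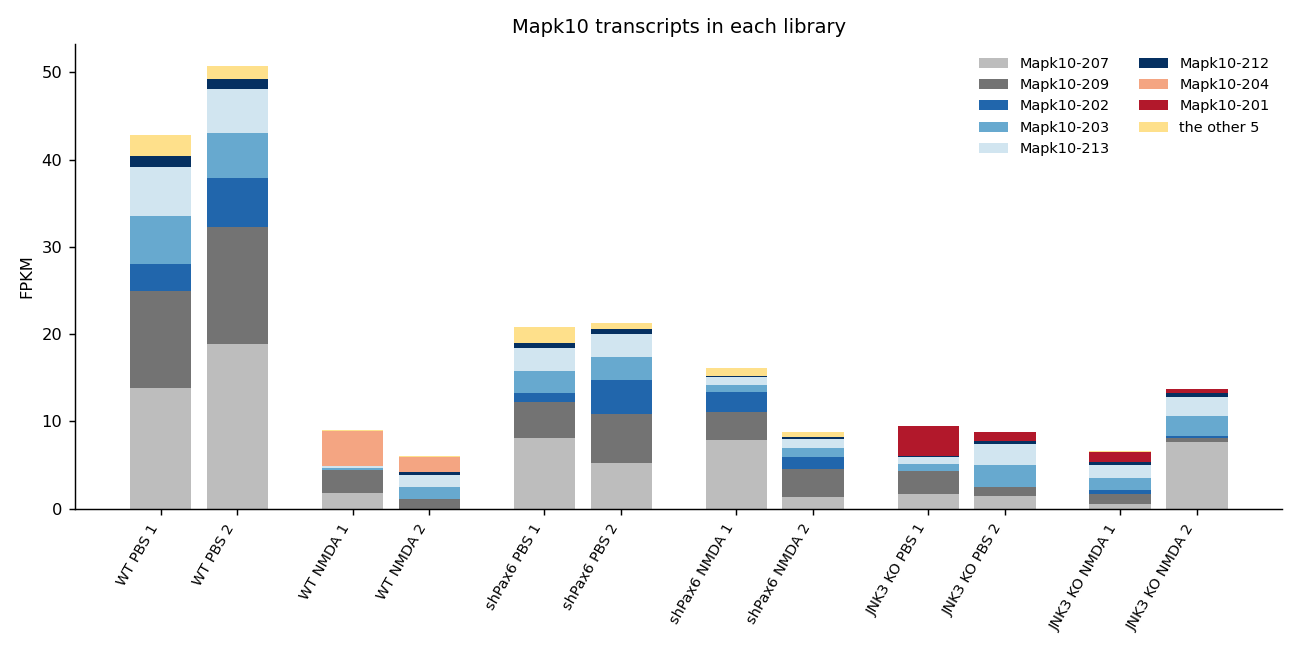
FPKM of the Mapk10 transcripts in each library, stacked, with the noncoding Mapk10-207 and the decay target Mapk10-209 in greys, the coding transcripts and the unannotated Mapk10-213 in blues, Mapk10-204 in light orange, Mapk10-201 in red and the other 5 in yellow. Mapk10-204 appears only in the WT NMDA bars (3.93 and 1.71 FPKM) and Mapk10-201 only in the 4 JNK3 KO bars (0.52 to 3.43 FPKM).

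Each JNK gene has a pair of 72-base exons in the kinase domain that replace each other, and the choice is known to alter which substrates the kinase prefers. They are called A, the upstream exon, and B here. They are shown because their shares among full-length coding transcripts of Mapk8 and Mapk10 differed between groups. The capitals mark the bases at which A and B of the same gene differ.
Mapk8 A, chr14:33390673-33390744: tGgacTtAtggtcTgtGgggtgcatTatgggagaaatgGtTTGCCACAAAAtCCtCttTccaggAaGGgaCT
Mapk8 B, chr14:33390242-33390313: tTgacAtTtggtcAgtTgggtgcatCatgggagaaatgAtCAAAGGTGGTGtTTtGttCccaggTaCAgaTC
Mapk9 A, chr11:49873836-49873907: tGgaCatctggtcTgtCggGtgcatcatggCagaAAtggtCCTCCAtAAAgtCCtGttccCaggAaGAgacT
Mapk9 B, chr11:49874264-49874335: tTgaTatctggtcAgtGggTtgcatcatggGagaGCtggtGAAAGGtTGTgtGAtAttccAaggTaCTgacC
Mapk10 A, chr5:102987203-102987274: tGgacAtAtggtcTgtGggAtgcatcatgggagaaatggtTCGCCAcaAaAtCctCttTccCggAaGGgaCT
Mapk10 B, chr5:102976355-102976426: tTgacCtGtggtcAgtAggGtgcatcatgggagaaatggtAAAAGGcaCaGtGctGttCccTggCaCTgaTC
Exons A and B matched at 45 of 72 bases in Mapk8, 47 in Mapk9 and 49 in Mapk10. Across genes the same exon was closer, with exon A matching at 67 of 72 bases between Mapk8 and Mapk10, at 59 between Mapk8 and Mapk9, and at 60 between Mapk9 and Mapk10.

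The summed level of full-length coding Mapk8 transcripts with exon B was 8.24 and 10.9 FPKM in WT PBS and 0.30 and 0.39 FPKM in WT NMDA, while those with exon A went from 15.7 and 13.8 FPKM to 6.32 and 6.82 FPKM. Exon B thus made up 34.5% and 44.0% of both forms in WT PBS and 4.5% and 5.4% in WT NMDA. In the other 8 libraries its share was between 41.0% and 66.0%, with 55.2% and 62.9% in shPax6 PBS and 55.7% and 66.0% in shPax6 NMDA, which overlapped. In JNK3 KO it was 49.2% and 41.0% with PBS and 49.9% and 58.9% with NMDA, so that both NMDA libraries were higher. The long coding end of Mapk8, of 427 codons in place of 384, went from 41.8% and 27.6% to 4.5% and 5.4% in WT. In WT NMDA the one coding transcript with a sizeable level was Mapk8-205, which has exon A, the short end and the longest 3′ part of the gene, 5756 bases in all. It went from 11.5 and 11.1 FPKM to 6.32 and 6.82 FPKM (log2 difference -0.77, adjusted p = 0.006866), whereas Mapk8-201 went from 5.81 and 4.08 FPKM to 0.30 and 0.39 FPKM (-3.49, adjusted p = 7.546e-05), and Mapk8-203 and Mapk8-204 were listed at 0 in both WT NMDA libraries. By limma diffSplice, Mapk8-205 changed unlike the rest of its gene (adjusted p = 0.02445), as did Mapk8-203, which has exon B (adjusted p = 0.03492). Mapk8-201, also with exon B, did not (adjusted p = 0.8141). Mapk8-204, listed at 0 in WT NMDA like Mapk8-203, has exon A. In Mapk8-205, 3151 bases are held by no other transcript. The shares of exons A and B were not tested, so a change of exon use cannot be told apart from a change of transcript. Mapk8-201, Mapk8-203 and Mapk8-204 are shorter than Mapk8-205, at 2587, 1310 and 1528 bases. The WT NMDA libraries are those whose differences followed transcript length, and the part of this in the shares was not tested. With the length trend removed, the difference of Mapk8-205 was 0.76 and that of Mapk8-201 -2.82, both called.

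**Figure D5:**
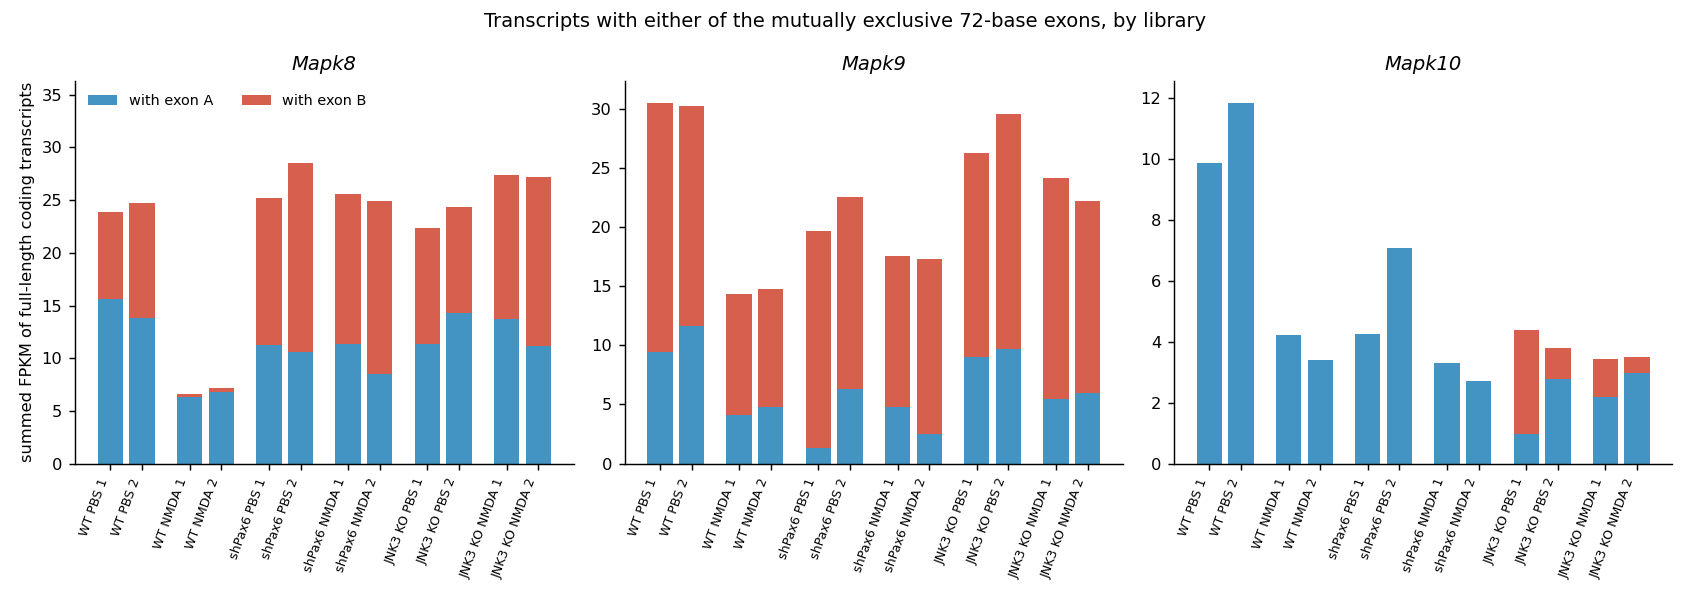
Summed FPKM of full-length coding transcripts with exon A (blue) and exon B (red) in each library for Mapk8, Mapk9 and Mapk10; each panel has its own axis. The red part of Mapk8 is 0.30 and 0.39 FPKM in WT NMDA and 8.24 or more in every other library. Mapk10 has a red part only in JNK3 KO, between 0.52 and 3.43 FPKM. Mapk10-209, which also holds exon B but is not a full-length coding transcript, is not drawn.

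In Mapk9, exon B made up 69.0% and 61.6% of both Mapk9 forms in WT PBS and 71.2% and 67.4% in WT NMDA, ranges that overlapped. In shPax6 it was 93.3% and 71.8% with PBS and 72.7% and 85.7% with NMDA, which also overlapped, and in JNK3 KO 65.6% and 67.2% with PBS and 77.2% and 73.0% with NMDA, where both NMDA libraries were higher. Mapk9-201, the main coding transcript with exon B, went from 19.6 and 17.2 FPKM to 10.2 and 9.96 FPKM in WT (-0.86, adjusted p = 0.003834, 0.50 with the length trend removed) and from 18.3 and 16.2 FPKM to 8.58 and 11.6 FPKM in shPax6 (-0.78, adjusted p = 0.02184), a call lost without the first shPax6 PBS library (-0.69). Mapk9-209 was at 2.40 and 0.48 FPKM in shPax6 NMDA and listed at 0 in the other 10 libraries (adjusted p = 0.02387, lost without the first shPax6 PBS library at 0.05315). Mapk9-204, listed at 0 in both shPax6 PBS libraries and at 1.75 and 2.77 FPKM in shPax6 NMDA, changed unlike the rest of its gene (adjusted p = 0.02819). In Mapk10, exon B was listed at 0 in full-length coding transcripts outside JNK3 KO and made up 78.1% and 26.5% of both forms in JNK3 KO PBS and 36.0% and 14.9% in JNK3 KO NMDA, where Mapk10-201 was its carrier.

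Over all 23 transcripts tested, 17 were called lower in WT after NMDA, beside 23.5% of all transcripts, and 1 was called higher, beside 11.7%. These counts hold Mapk10-203 and the identical Mapk10-213 both. With that pair counted once, 16 of 22 were lower, 6 of 7 for Mapk8, 5 of 8 for Mapk9 and 5 of 7 for Mapk10. Of the 22 transcripts with a known length, 10 were lower and 3 higher with the length trend removed, and no share over all transcripts is given for that setting. The count of 18 was 9 without the first WT PBS library, 10 without the second and 11 without the first WT NMDA library. In WT, 5 of the 23 changed unlike the rest of their gene, beside 16.1% of transcripts tested for this, and in shPax6 1 did, beside 4.35%. In shPax6 after NMDA 1 transcript was lower, beside 3.63%, and 1 higher, beside 4.71%. After NMDA in JNK3 KO limma called 0 of the 23, beside 1.31% called in either direction, with 1 at an unadjusted p under 0.05, and 0 changed unlike the rest of their gene, beside 0.616%, with 2 at an unadjusted p under 0.05. Between shPax6 PBS and WT PBS limma also called 0, beside 2.73%, with 3 at an unadjusted p under 0.05, and 0 changed unlike the rest of their gene, beside 1.08%, with 3 at an unadjusted p under 0.05.

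Among the scaffold genes, Mapk8ip3, whose product JIP3 links cargo to kinesin and dynein in axons, was the highest of the 10 genes in WT PBS at 68.6 and 72.8 FPKM, and it was at 38.5 and 27.7 FPKM in WT NMDA. It fell by 1.11 (SE 0.135, adjusted p = 8.49e-05), and -0.33 remained without the length trend, which was not called. In shPax6 it was at 49.2 and 46.8 FPKM with PBS and 53.2 and 61.0 FPKM with NMDA, so it was higher in both NMDA libraries, without passing the threshold (0.25, adjusted p = 0.204). With protein-coding transcripts alone this difference was -0.25 and was called. The responses of WT and shPax6 differed by -1.36 (adjusted p = 0.0004074), and those of WT and JNK3 KO by -0.94 (adjusted p = 0.002688). Neither was called without the length trend (-0.54 and -0.09).

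Mapk8ip2, which encodes the neuronal scaffold JIP2, was the only gene of the 10 called lower after NMDA in all 3 kinds of retina. It went from 37.4 and 33.7 FPKM to 20.2 and 18.7 FPKM in WT (-0.87, SE 0.082, adjusted p = 1.595e-05), from 27.7 and 26.8 FPKM to 19.4 and 20.1 FPKM in shPax6 (-0.46, adjusted p = 0.002802), and from 30.7 and 32.8 FPKM to 24.4 and 24.8 FPKM in JNK3 KO (-0.37, adjusted p = 0.02222). NMDA libraries lay below PBS libraries in each kind of retina. The JNK3 KO call was lost without any single one of the 4 JNK3 KO libraries, at values from -0.42 to -0.32. Without the length trend the WT direction turned to 0.29 (adjusted p = 0.01334), whereas shPax6 (-0.41) and JNK3 KO (-0.53) remained negative and called. The WT response differed from that of shPax6 by -0.41 (adjusted p = 0.01637), lost without the first WT PBS library (-0.33), and from that of JNK3 KO by -0.50 (adjusted p = 0.0056), and without the length trend these differences turned to 0.70 and 0.82.

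Mapk8ip1, which encodes JIP1, had the smallest difference of the scaffold genes in WT, from 45.7 and 43.1 FPKM to 34.9 and 35.6 FPKM (-0.33, SE 0.111, adjusted p = 0.0274). This call was lost without any single one of the 4 WT libraries (-0.38 to -0.29), and the value was 0.05 without the length trend. It went from 35.1 and 30.9 FPKM to 21.9 and 27.7 FPKM in shPax6 (-0.42, adjusted p = 0.02031), lost without the first shPax6 PBS library (-0.33) or the first shPax6 NMDA library (-0.25), and from 42.6 and 41.9 FPKM to 32.0 and 34.0 FPKM in JNK3 KO (-0.36, adjusted p = 0.07846). The WT response minus that of shPax6 was 0.08 and minus that of JNK3 KO 0.02, neither called, and the former was called at 0.57 without the length trend.

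Without NMDA, all 3 scaffold genes were lower in shPax6 than in WT. The differences between shPax6 PBS and WT PBS were -0.43 for Mapk8ip1 (adjusted p = 0.02962), -0.38 for Mapk8ip2 (adjusted p = 0.01309) and -0.56 for Mapk8ip3 (adjusted p = 0.02247). In each, both shPax6 PBS libraries lay below both WT PBS libraries. These 3 were the only calls among the 10 genes, beside 11.2% of all genes, and they rested on single libraries. Without the first WT PBS library none was called (Mapk8ip1 -0.39, Mapk8ip2 -0.31, Mapk8ip3 -0.60), and 1 was called without the second WT PBS library or the second shPax6 PBS library, and 2 without the first shPax6 PBS library or any JNK3 KO library. Without the length trend only Mapk8ip2 was called (-0.28), beside 1452 of 16452 genes lower and 1269 higher. In the same comparison 10 of 14 RGC markers were called lower, and their part in these differences was not tested.

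The activating kinases differed from each other. Map2k4, whose product phosphorylates mainly the tyrosine of the loop, went from 28.0 and 23.0 FPKM to 10.9 and 9.15 FPKM in WT. It fell by 1.34 (SE 0.124, adjusted p = 1.476e-05), and -0.80 remained without the length trend and was still called. It was at 19.6 and 19.7 FPKM with PBS and 20.2 and 17.6 FPKM with NMDA in shPax6, groups that overlapped (-0.06). In JNK3 KO it was at 23.1 and 21.9 FPKM with PBS and 21.9 and 20.9 FPKM with NMDA, where the NMDA libraries were just below the PBS libraries (-0.08, not called). The response of WT differed from that of shPax6 by -1.28 (adjusted p = 0.0003632) and from that of JNK3 KO by -1.27 (adjusted p = 0.000289), and both calls held without the length trend (-0.65 and -0.68).

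Map2k7, whose product phosphorylates mainly the threonine, was the one gene not called in WT. It was at 38.1 and 45.1 FPKM with PBS and 41.0 and 27.5 FPKM with NMDA, groups that overlapped (-0.30, 95% interval -0.69 to 0.09, adjusted p = 0.1618), and the value was 0.16 without the length trend, also not called. Without the first WT NMDA library it was called at -0.59, and without the second the value was -0.02. Protein-coding transcripts alone gave 34.8 and 41.7 FPKM with PBS and 22.4 FPKM in both NMDA libraries, and were called lower (-0.77). In shPax6 it was at 37.2 and 42.0 FPKM against 35.4 and 41.8 FPKM, and in JNK3 KO at 37.5 and 37.1 FPKM against 35.4 and 34.3 FPKM, differences of -0.04 and -0.10 that were not called.

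The kinases at the head of the relay were lower after NMDA in WT, but neither was called lower without the length trend. Map3k12, which encodes DLK, went from 28.4 and 28.1 FPKM to 15.1 and 17.2 FPKM (-0.81, SE 0.138, adjusted p = 0.0007503), and from 32.9 and 25.7 FPKM to 18.5 and 22.9 FPKM in shPax6 (-0.50, adjusted p = 0.02424), the latter lost without the first shPax6 PBS library (-0.32) or the first shPax6 NMDA library (-0.34). In JNK3 KO it was at 26.7 and 26.9 FPKM with PBS and 23.6 and 25.4 FPKM with NMDA (-0.13, not called). Without the length trend the WT value was -0.19, not called, and the shPax6 value -0.57, still called. The WT response differed from that of JNK3 KO by -0.67 (adjusted p = 0.0168), lost without the first WT PBS (-0.67), the first WT NMDA (-0.58), the first JNK3 KO PBS (-0.67) or the second JNK3 KO NMDA library (-0.62) and without the length trend (-0.004), and the difference from shPax6 was -0.31 (adjusted p = 0.2173).

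Map3k13, which encodes the DLK-related kinase LZK, had the lowest mean level of the 10 in all 6 groups, though in JNK3 KO NMDA it overlapped Mapk10. It was at 7.43 and 6.54 FPKM in WT PBS and 4.12 and 2.80 FPKM in WT NMDA and fell by 1.02 (SE 0.201, adjusted p = 0.001855). It has the longest transcripts of the 10, and without the length trend the WT value turned to 0.54 (adjusted p = 0.05697). In shPax6 it was at 6.29 and 7.29 FPKM with PBS and 4.40 and 5.25 FPKM with NMDA, lower in both NMDA libraries but not called (-0.49, adjusted p = 0.1023), and in JNK3 KO at 5.96 and 6.74 FPKM and 6.84 and 6.56 FPKM. The WT response differed from that of JNK3 KO by -1.09 (adjusted p = 0.01022) and from that of shPax6 by -0.53 (adjusted p = 0.1541), and without the length trend these were 0.74 and 0.88.

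The order of levels in WT PBS ran from Mapk8ip3 (mean 70.7 FPKM) through Mapk9, Mapk10, Mapk8ip1 and Map2k7 (46.8, 46.8, 44.4 and 41.6 FPKM, each overlapping the next), Mapk8ip2 (35.5 FPKM), Map3k12 (28.2 FPKM) and the overlapping Mapk8 and Map2k4 (26.4 and 25.5 FPKM) to Map3k13 (6.99 FPKM). In WT NMDA, Mapk8ip1, Map2k7 and Mapk8ip3 led with overlapping levels (35.2, 34.3 and 33.1 FPKM), and Mapk10 and Mapk8 (7.49 and 7.40 FPKM) overlapped each other above Map3k13. In JNK3 KO PBS Mapk10 (9.11 FPKM) lay below every other gene of the 10 but Map3k13.

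Other kinases that feed the relay were mostly lower in WT after NMDA, though not once the length trend was removed. Among all genes 26% were called higher in WT, 19.1% in shPax6 and 4.33% in JNK3 KO, beside the 33.8%, 11% and 6.1% called lower. Without the length trend, of 16452 genes 3920 were higher and 3638 lower in WT. In shPax6 2259 were then higher and 2500 lower, and in JNK3 KO 565 and 853. Of 13 other MAP3 kinases tested, 9 were called lower and 1 higher, with a median of -0.999 against -0.09 for all genes, and without the length trend 4 were lower and 5 higher. Map3k9, of the same mixed-lineage family as DLK, went from 4.22 and 3.64 FPKM to 0.47 and 0.86 FPKM (-2.44, adjusted p = 0.0002165, -1.63 without the length trend), Map3k3 from 13.3 and 13.7 FPKM to 4.45 and 3.65 FPKM (-1.72, likewise -1.47), and Map3k6 rose from 0.47 and 0.79 FPKM to 7.61 and 5.89 FPKM (3.25, adjusted p = 0.002666). In shPax6 1 of the 13 was lower and 1 higher, and in JNK3 KO 3 were higher, or 0 without the length trend.

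Of 7 MAP4 kinases, 5 were lower and 1 higher in WT, with a median of -0.79, and 2 were lower and 0 higher without the length trend. Tnik, a kinase of the Traf2 and Nck pathway, fell from 20.4 and 24.3 FPKM to 2.41 and 3.26 FPKM (-2.95, adjusted p = 1.459e-06, -1.98 without the length trend), Mink1 from 33.6 and 30.8 FPKM to 17.0 and 14.9 FPKM (-1.01, likewise -0.43), and Map4k1 rose from 0.75 and 0.84 FPKM to 1.80 and 2.45 FPKM (1.3, adjusted p = 0.03827). Of 11 other scaffolds and regulators of DLK, 6 were lower and 1 higher, with a median of -0.83, and 2 lower and 3 higher without the length trend. Usp9x, a deubiquitinase that stabilizes DLK, fell from 46.6 and 43.0 FPKM to 11.2 and 12.3 FPKM (-1.92, or -0.52 without the length trend). Spag9, which encodes JIP4, fell from 53.8 and 54.2 FPKM to 16.1 and 16.3 FPKM (-1.73, likewise -0.39), and Mycbp2, the ubiquitin ligase that marks DLK for degradation, from 35.3 and 32.9 FPKM to 14.5 and 11.7 FPKM (-1.38, but 0.10 without the length trend). In shPax6 1 MAP4 kinase was lower and 1 higher, and of the scaffolds and regulators 1 was lower and 3 higher. In JNK3 KO no MAP4 kinase was called, and 2 of the scaffolds and regulators were higher, or 0 without the length trend.

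Among 16 substrates and transcriptional targets of JNK signaling, 6 were higher and 6 lower in WT, with a median of 0.07, or 7 higher and 4 lower without the length trend. Ddit3, which encodes the stress factor CHOP, rose from 51.9 and 54.6 FPKM to 210 and 236 FPKM (2.06, adjusted p = 1.512e-07, 1.01 without the length trend), and Atf3, another stress factor, from 18.7 and 16.2 FPKM to 46.9 and 42.0 FPKM (1.34, adjusted p = 7.66e-06). The microtubule genes Dcx and Map1b fell by 2.14 and 2.04 on the log2 scale, and -0.66 and -0.22 remained without the length trend. In shPax6 6 were higher and 2 lower, and in JNK3 KO 1 was higher and 1 lower, or 6 and 3 and 0 and 2 without the length trend. Jun, the name-giving substrate, was at 23.1 and 22.1 FPKM with PBS and 23.3 and 21.8 FPKM with NMDA in WT, and at 22.5 and 20.0 FPKM and 56.2 and 50.8 FPKM in shPax6, where it rose by 1.33 (adjusted p = 8.231e-06). The WT response of Jun differed from that of shPax6 by -1.33 (adjusted p = 3.563e-05). In JNK3 KO Jun was at 23.8 and 23.2 FPKM and 25.0 and 25.4 FPKM (0.10, not called). The proapoptotic genes Bbc3 and Bcl2l11 rose in shPax6 by 1.38 and 0.76 (adjusted p = 0.00678 and 0.003714) and were not called in WT (0.14 and -0.24) or JNK3 KO (-0.43 and 0.21). The values given for Atf3, Jun, Bbc3 and Bcl2l11 have the length trend left in. Whether Jun, Bbc3 and Bcl2l11 would be called in WT without it is not given.

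The genes with the most similar pattern over the 12 libraries, by Pearson's r of log2(FPKM + 0.1) among 13889 protein-coding genes, were Kmt2e (r = 0.997), Edem3 (0.996) and Smurf2 (0.995) for Mapk8. For Mapk9 they were Edil3 (0.992), Wdr7 (0.978) and Cttnbp2 (0.978), and for Map3k12 Pdgfd (0.985), Pknox1 (0.966) and Tanc2 (0.960). For Mapk10 the highest were lower, Slc4a8 (0.815), Ror2 (0.804) and Brpf3 (0.792). The points share the 2 WT NMDA libraries, and Kmt2e, at 31.5 and 33.0 FPKM in WT PBS and 6.47 and 6.83 FPKM in WT NMDA, was between 27.9 and 39.6 FPKM in the other 8.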

How the data were processed

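RNA-seq was measured in 12 libraries. Per the labels, the authors aligned reads with STAR 2.7.1a, estimated levels with RSEM 1.3.3 on GRCm38.p6 and tested them with edgeR 3.36.0 in R 4.1.0. The deposited values are FPKM per gene and per transcript, with no counts, so depth is unknown and no counting interval is given. Names and positions were matched to GENCODE M21 (55227 of 55487 genes and 141469 of 142699 transcripts). Differences were fitted with limma 3.58.1 (R 4.3.3) on log2(FPKM + 0.1), with 6 group means and 6 residual degrees of freedom, after a filter on a group mean above 1 FPKM. Fold changes on this scale understate those of low genes. Calls are at a Benjamini-Hochberg adjusted p under 0.05 over all 16471 genes or 49940 transcripts. The length trend was removed per library with a lowess fit (span 0.3). In simulated data 200 of 16471 genes and 200 of 49940 transcripts were changed, far fewer than were called for NMDA in WT. There, 44% of 2-fold and 76% of 4-fold gene changes were found, with 15 false calls. For transcripts 4% and 21% were found, with 2 false calls. These shares need not hold for the real WT comparison, where many more features changed. The genes and lists were chosen with earlier results of these data known. In each list, the up to 3 genes called in WT with the largest change were named, except 1 that is not reported here. Jun, Atf3, Bbc3 and Bcl2l11 were named for their roles. Sums of protein-coding transcripts were added after seeing the data.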

Additional observations from a re-analysis of the deposited data

Results flagged for a closer look

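The NMDA response differed between kinds of retina, by the test of the difference itself, for 6 genes between WT and shPax6 and 8 between WT and JNK3 KO. On the log2 scale the WT response minus the shPax6 response was -1.748 for Mapk8, -1.047 for Mapk9, -1.836 for Mapk10, -0.408 for Mapk8ip2, -1.356 for Mapk8ip3 and -1.28 for Map2k4. The WT response minus the JNK3 KO response was -2.099 for Mapk8, -1.388 for Mapk9, -2.721 for Mapk10, -0.498 for Mapk8ip2, -0.942 for Mapk8ip3, -1.265 for Map2k4, -0.673 for Map3k12 and -1.094 for Map3k13. Both sets rest on the same 2 WT NMDA libraries, whose differences followed transcript length. With the length trend removed, the shPax6 difference was no longer called for Mapk9 and Mapk8ip3 and turned positive for Mapk8ip2. The JNK3 KO difference was no longer called for Mapk8ip3, Map3k12 and Map3k13 and turned positive for Mapk8ip2 and Map3k13. With protein-coding sums as well, the difference was also no longer called for Mapk10 against shPax6 (-0.444) and for Mapk9 against JNK3 KO (-0.143).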

How the results depend on the processing

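With 2 libraries per group and 6 residual degrees of freedom, small changes could not be called, and depth is unknown. Replicate numbers did not pair the samples: over 15 pairs of groups the correlation of deviations lay between -0.097 and 0.086. With a replicate block, the counts for genes were 9, 4, 1, 4, 1, 6 and 8 against 9, 4, 1, 3, 1, 6 and 8, and the transcript count for JNK3 KO PBS was 0 against 1. The cause of the changes below was not tested.

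The main counts of the 10 genes called were 9 (NMDA in WT), 4 (NMDA in shPax6), 1 (NMDA in JNK3 KO), 3 (shPax6 PBS), 1 (JNK3 KO PBS), 6 (WT minus shPax6 response) and 8 (WT minus JNK3 KO response), and of transcripts 18, 2, 0, 0 and 1 in the first 5. On the TPM scale the WT minus shPax6 count was 10, beside 7771 of all 16471 genes lower and 1516 higher. With the length trend removed, WT minus shPax6 also had 6, of which 3 were lower and 3 higher, and the counts were 5 for WT, 1 for shPax6 PBS, 5 for WT minus JNK3 KO and 0 for transcripts in JNK3 KO PBS. Without an intensity trend they were 1 for shPax6 PBS, 0 for JNK3 KO PBS, 1 for transcripts in shPax6 and 2 in JNK3 KO PBS. With the spread from the groups compared they were 0 for shPax6, 2 for JNK3 KO, 0 for JNK3 KO PBS, and 0 for transcripts in shPax6 and in JNK3 KO PBS. Protein-coding sums gave 3 for JNK3 KO and 6 for shPax6 PBS, and 4 and 5 with the length trend removed. An unadjusted p with a fold threshold gave 0 for shPax6, 0 for JNK3 KO, 1 for shPax6 PBS, 5 for WT minus JNK3 KO, and 3 and 6 for transcripts in shPax6 PBS and JNK3 KO PBS. For transcripts, pseudocounts of 0.5 and 1 each gave 1 in shPax6 and 0 in JNK3 KO PBS, filtering on the mean over the 12 libraries gave 1 in shPax6, scaling to the 75th percentile gave 0 in JNK3 KO PBS, and quantile normalization gave 10 in WT, 1 in shPax6 and 0 in JNK3 KO PBS.

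Leaving out 1 library gave 8 to 9 genes for WT, 2 to 6 for shPax6, 0 to 2 for JNK3 KO, 0 to 3 for shPax6 PBS, 0 to 1 for JNK3 KO PBS, 5 to 8 for WT minus shPax6 and 7 to 8 for WT minus JNK3 KO. For transcripts it gave 9 to 18 in WT, 0 to 3 in shPax6, 0 to 1 in JNK3 KO, 0 to 1 in shPax6 PBS and 0 to 1 in JNK3 KO PBS.

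Some values changed sign. On the TPM scale Mapk8ip1 was -0.438 for WT minus shPax6 and -0.569 for WT minus JNK3 KO. With the length trend removed, the WT values were 0.046 for Mapk8ip1, 0.288 for Mapk8ip2, 0.541 for Map3k13, 0.498 for Mapk9-201 and 0.764 for Mapk8-205. WT minus shPax6 was then 0.697 for Mapk8ip2 and 0.879 for Map3k13, and WT minus JNK3 KO 0.815 and 0.744. With protein-coding sums Mapk8ip3 in shPax6 was -0.253, and -0.266 with the length trend removed as well. That combination also gave, in WT, 0.182 for Mapk8ip1, 0.434 for Mapk8ip2, 0.014 for Mapk8ip3, 0.024 for Map3k12 and 0.585 for Map3k13. WT minus shPax6 was 0.768 for Mapk8ip2, 0.28 for Mapk8ip3, 0.698 for Map3k12 and 0.915 for Map3k13, and WT minus JNK3 KO 0.971, 0.478, 0.202 and 0.796 for the same genes.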

Other observations

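The other MAP kinase arms and the phosphatases that switch them off are given here by the same counts. Of the 8 genes of the p38 arm tested, 5 were higher and 1 lower after NMDA in WT, with a median of 0.74 on the log2 scale against -0.09 for all genes, and the same counts without the length trend. Of all genes, 26% were called higher and 33.8% lower in WT, 19.1% and 11% in shPax6, and 4.33% and 6.1% in JNK3 KO. Without the length trend, of 16452 genes 3920 were higher and 3638 lower in WT. In shPax6 2259 were then higher and 2500 lower, and in JNK3 KO 565 and 853. In shPax6 5 of the 8 were higher and 0 lower, or 3 and 0 without the length trend, and in JNK3 KO 1 was higher. Mapkapk3, a kinase activated by p38, rose in all 3 kinds of retina, from 1.16 and 1.84 FPKM to 6.62 and 5.97 FPKM in WT (2.03, adjusted p = 0.0007969), from 0.94 and 2.05 FPKM to 4.53 and 5.02 FPKM in shPax6 (1.70, adjusted p = 0.006017) and from 1.89 and 1.46 FPKM to 4.30 and 4.88 FPKM in JNK3 KO (1.41, adjusted p = 0.03529). Mapk13, which encodes p38 delta, rose by 2.42 in WT, and Map2k3, an activator of p38, by 1.12.

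Of 9 genes of the ERK arm, 4 were higher and 4 lower in WT, or 5 and 4 without the length trend. Braf fell by 1.89 on the log2 scale (-0.45 without the length trend), and Map2k2, which encodes MEK2, rose from 51.1 and 57.7 FPKM to 144 and 135 FPKM (1.36, adjusted p = 3.064e-06). In shPax6 3 of the 9 were higher and 0 lower, but 0 higher and 2 lower without the length trend, and in JNK3 KO 1 was lower, or 0. Of 15 MAP kinase phosphatases, 6 were higher and 3 lower in WT, 5 and 3 in shPax6, and 1 and 2 in JNK3 KO, or 6 and 2, 4 and 3, and 1 and 1 without the length trend. Dusp4 fell from 12.2 and 13.8 FPKM to 1.53 and 2.01 FPKM in WT (-2.82, adjusted p = 5.431e-07). Dusp5 rose from 11.4 and 11.9 FPKM to 27.0 and 28.5 FPKM (1.25) and Dusp26 from 69.1 and 76.5 FPKM to 132 and 135 FPKM (0.87). The WT values of Mapkapk3, Mapk13, Map2k3, Map2k2, Dusp4, Dusp5 and Dusp26 have the length trend left in. Genes under 2000 bases had a WT median of 0.62.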
